A study of Mus musculus with 6 samples.

Results

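The Schlafen genes are a family of growth-regulatory genes that was first described in developing mouse thymocytes and named after the German word for sleep. The 7 members followed here are Slfn1, Slfn2, Slfn3, Slfn4, Slfn5, Slfn8 and Slfn9, chosen by symbol from the 49492 gene rows of a count table; all 7 have a row, and 6 passed the filter on low counts. The fit covered 15186 genes.

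RNA was sequenced from splenic CD8 T cells that were purified as naive cells and cultured for 24 hours on plate-bound anti-CD3 (1 µg/ml) with soluble anti-CD28 (1 µg/ml). The 3 KO libraries (replicates 4 to 6) came from NIK-CD4Cre-OT-I mice and the 3 WT libraries (replicates 1 to 3) from wild type OT-I mice. All mice were on the C57/BL6 background and 6 to 8 weeks old. Both groups carry the OT-I transgenic T cell receptor, so neither has a normal receptor repertoire. NIK, encoded by Map3k14, is the kinase that starts noncanonical NF-kB signalling, and Cre under Cd4 control is active in thymocytes before the CD4 and CD8 lineages part, so it also reaches CD8 cells. The labels leave unstated the Map3k14 allele, the Cre status of the WT mice and how many mice gave the replicates, so p-values describe the spread among these libraries.

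Schlafen proteins share an N-terminal core that binds RNA, and members of the family have been shown to cleave or to protect transfer RNAs. The short members Slfn1 and Slfn2 consist of little more than this core, Slfn3 and Slfn4 are of middle length, and Slfn5, Slfn8 and Slfn9 carry an added helicase-like domain. Several members are induced by type I interferon, and in mouse T cells Slfn2 is needed to maintain quiescence and to survive activation.

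Total counts ran from 41311346 to 47851445 in the KO libraries and from 45012963 to 46548251 in the WT libraries, so 3 counts, the floor used here for counting error, are worth 0.0627 to 0.0722 CPM, the count divided by the TMM-adjusted library total and given throughout in this unit. Map3k14 had 50.7, 64.5 and 54.7 CPM in KO replicates 4, 5 and 6, against 53.6, 65.5 and 65.3 CPM in WT replicates 1, 2 and 3 (log2 fold -0.12, edgeR adjusted p = 0.81). The count of a whole gene can miss the loss of some exons, so these values do not check the genotype labels. Across the table edgeR called 1 gene, 0.00659% of those tested, at a Benjamini-Hochberg adjusted p under 0.05. Marker genes of CD8 T cells summed to 4029 to 4321 CPM in the KO libraries and 4215 to 4309 CPM in the WT libraries. Of these 12 markers, 0 were called, but 5 had groups that did not overlap, against 12.8% of all tested genes. KO was below WT for Il2ra and above WT for Cd247, Cd8b1, Lck and Cd3d. Both groups mixed the sexes, so each group drew on more than 1 mouse. KO replicate 6 and WT replicates 1 and 3 had high Xist counts. KO replicates 4 and 5 and WT replicate 2 had Y-linked counts. Each log2 ratio within a sex, given below, thus rests on 1 KO library or on 1 WT library.

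None of the 6 tested Schlafen genes was called by edgeR with genotype as the single term, by DESeq2 or by limma-voom. The background shares of calls are 0.00659%, 0.65% and 0.00659% of tested genes. At an unadjusted edgeR p under 0.05 there were 2, Slfn5 and Slfn8, both with higher values in KO libraries. Over all tested genes, 3.82% were higher at this p and 7.26% differed in either direction. The same pair had estimates beyond 0.26 in log2, as had 19.9% of all tested genes in either direction. Estimates were positive for 4 members (Slfn1, Slfn3, Slfn5 and Slfn8) and negative for 2 (Slfn2 and Slfn9), where 52.4% of all tested genes had a positive estimate. The median log2 fold of the 6 was 0.22, against 0.007 for all tested genes. Slfn8 alone had groups that did not overlap, with KO above WT. Over all tested genes, 6.68% had KO above WT, 6.07% had KO below WT and 12.8% had either. A sample of whole cells cannot tell fewer cells of a type from less RNA per cell, and this holds for every level below.

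**Figure D1:**
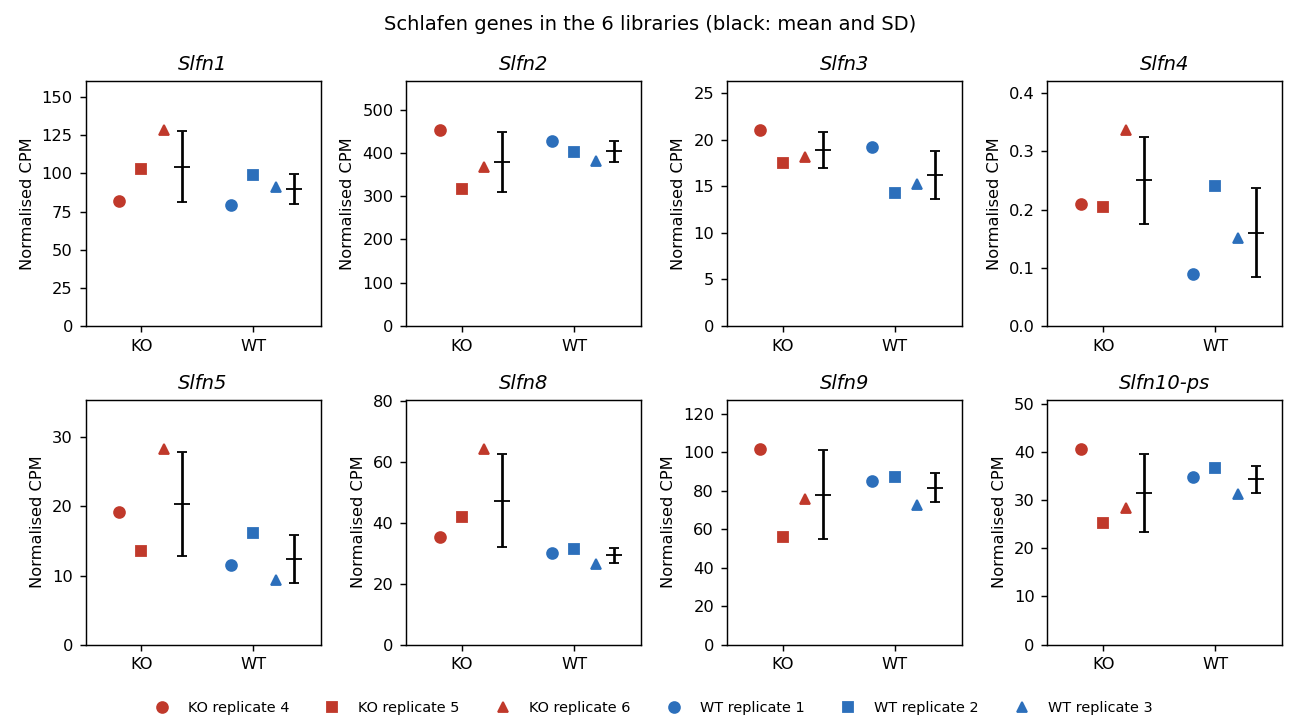
Normalised CPM of the 7 Schlafen members and the pseudogene Slfn10-ps in each library, KO replicates left and WT replicates right, with the group mean and SD in black (n = 3 each) and every vertical axis starting at 0. The 3 Slfn8 values of the KO group lie above the 3 of the WT group, and the groups overlap for every other gene drawn.

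The genes lie in 1 cluster of 344.4 kb on chromosome 11 (82942341 to 83286726, GRCm38, from the Slfn5os start to the Slfn14 end in GENCODE M21). Slfn5, Slfn2, Slfn1, Slfn4 and Slfn3 are on the plus strand, and Slfn9 and Slfn8 on the minus strand. Levels between genes were compared per kb of merged exons. In the KO libraries Slfn2 had 228.0 ± 41.5 CPM per kb, Slfn1 56.0 ± 12.5, Slfn9 13.1 ± 3.87, Slfn8 11.5 ± 3.72, Slfn3 5.54 ± 0.554, Slfn5 3.22 ± 1.18 and Slfn4 0.0631 ± 0.0190 (SD, n = 3). In the WT libraries Slfn2 had 243.0 ± 14.4 CPM per kb, Slfn1 48.2 ± 5.36, Slfn9 13.7 ± 1.29, Slfn8 7.14 ± 0.611, Slfn3 4.76 ± 0.765, Slfn5 1.95 ± 0.553 and Slfn4 0.0404 ± 0.0192 (SD, n = 3). The order of these means was the same in both groups and also per kb of coding sequence. Within KO replicates 5 and 6, Slfn8 was above Slfn9 per kb of exons (10.25 and 15.7 against 9.37 and 12.7 CPM per kb). Per kb of coding sequence, Slfn9 was above Slfn8 in both. Slfn9 and Slfn8 overlapped in the KO libraries, at 9.37 to 17.1 and 8.65 to 15.7 CPM per kb, but not in the WT libraries, at 12.2 to 14.6 and 6.47 to 7.65 CPM per kb. Slfn2 alone took 53.8% to 63.6% of all Schlafen member counts in KO libraries and 61.9% to 65.6% in WT libraries.

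Slfn2, which in mice binds transfer RNAs and protects them from stress-induced cleavage in activated T cells, is at 83065112 to 83070678 on the plus strand. It had 453.0, 316.3 and 366.9 CPM in KO replicates 4, 5 and 6, against 428.3, 402.7 and 380.5 CPM in WT replicates 1, 2 and 3. KO replicate 4 was the highest of the 6 libraries and KO replicate 5 the lowest, so the KO values enclose all WT values. Its log2 fold was -0.092 (SE 0.13, edgeR adjusted p = 0.87), with a 95% interval of 0.763 to 1.15 for the fold. Without KO replicate 5 the estimate was 0.022. The log2 ratio for Slfn2 was -0.14 among libraries with high Xist counts and -0.066 among those with Y-linked counts. An annotated antisense transcript, Gm20234, overlaps this gene, and whether the counting used strand is not known here.

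Slfn1, the founding member, slows growth when overexpressed in mouse T cells, and lies at 83116849 to 83122670 on the plus strand. It stood at 81.9, 103.0 and 128.4 CPM in KO replicates 4, 5 and 6, against 79.2, 99.1 and 91.4 CPM in WT replicates 1, 2 and 3. KO replicates 5 and 6 were above all WT libraries and KO replicate 4 was among the lowest. The log2 fold was 0.21 (SE 0.16, edgeR adjusted p = 0.77, interval of the fold 0.89 to 1.51), and it was 0.36 without KO replicate 4, 0.13 without WT replicate 1 and 0.040 without KO replicate 6. Among libraries with high Xist counts the log2 ratio of mean CPM for Slfn1 was 0.59, with KO replicate 6 above both WT libraries. Among those with Y-linked counts it was -0.10, with WT replicate 2 between the KO libraries. Within libraries, the count ratio of Slfn1 to Slfn2 was 0.181, 0.326 and 0.350 in KO replicates 4, 5 and 6, against 0.185, 0.246 and 0.240 in WT replicates 1, 2 and 3. This ratio does not depend on library scaling, was picked after its values were seen and was not tested.

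Slfn3, a middle-length gene first described in thymocytes, is at 83191330 to 83215154 on the plus strand. It had 21.0, 17.5 and 18.1 CPM in KO replicates 4, 5 and 6, against 19.2, 14.2 and 15.2 CPM in WT replicates 1, 2 and 3. WT replicate 1 was above KO replicates 5 and 6, and the other WT libraries were below all KO libraries. The log2 fold was 0.22 (SE 0.13, edgeR adjusted p = 0.71, interval of the fold 0.944 to 1.44), and it ran from 0.14 without KO replicate 4 to 0.36 without WT replicate 1 (edgeR adjusted p = 0.18). By sex, the log2 ratio for Slfn3 was 0.076 among libraries with high Xist counts and 0.43 among those with Y-linked counts. Slfn4, known from mouse macrophages and other myeloid cells as an interferon-induced gene, had 10, 9 and 14 counts in KO replicates 4, 5 and 6, against 4, 11 and 7 counts in WT replicates 1, 2 and 3. These counts are little above the floor of 3 and too few to pass the filter, so no fold was fitted for Slfn4. The coding sequences of Slfn3 and Slfn4 are 91.0% identical over 1783 aligned bases, and 7.39% of the 50-base windows in Slfn3 transcripts also occur in Slfn4 transcripts.

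Among the long members, Slfn8 and Slfn9 are the closest pair, with coding sequences of 2730 bases each that are 92.7% identical. Slfn5 is 57.6% identical to Slfn8 over 2601 aligned bases. Promoter sequences are shown for the long members because Slfn5 and Slfn8 had the largest estimates and Slfn9 did not share them, and for Slfn2 as the most abundant member. Each runs 5′ to 3′ on the strand of its gene, from 250 bases before to 50 bases after the transcription start in RefSeq on GRCm38.p6. Capitals mark 10-base matches to the interferon-stimulated response element (ISRE, TTTC repeated after any 2 bases, either strand) and to the NF-kB consensus. The windows are Slfn5 at chr11:82951852-82952151 (plus strand), Slfn8 at chr11:83020761-83021060 (minus strand), Slfn9 at chr11:82991781-82992080 (minus strand) and Slfn2 at chr11:83064862-83065161 (plus strand).
Slfn5: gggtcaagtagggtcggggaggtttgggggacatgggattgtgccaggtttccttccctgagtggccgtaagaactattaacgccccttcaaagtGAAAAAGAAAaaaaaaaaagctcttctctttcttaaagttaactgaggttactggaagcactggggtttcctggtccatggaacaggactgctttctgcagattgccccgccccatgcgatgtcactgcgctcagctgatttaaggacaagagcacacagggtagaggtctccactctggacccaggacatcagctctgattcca
Slfn8: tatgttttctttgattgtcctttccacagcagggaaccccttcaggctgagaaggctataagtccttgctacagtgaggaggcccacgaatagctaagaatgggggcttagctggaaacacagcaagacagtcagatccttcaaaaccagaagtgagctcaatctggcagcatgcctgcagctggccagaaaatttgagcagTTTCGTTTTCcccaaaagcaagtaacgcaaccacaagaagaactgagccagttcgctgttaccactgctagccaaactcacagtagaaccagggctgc
Slfn9: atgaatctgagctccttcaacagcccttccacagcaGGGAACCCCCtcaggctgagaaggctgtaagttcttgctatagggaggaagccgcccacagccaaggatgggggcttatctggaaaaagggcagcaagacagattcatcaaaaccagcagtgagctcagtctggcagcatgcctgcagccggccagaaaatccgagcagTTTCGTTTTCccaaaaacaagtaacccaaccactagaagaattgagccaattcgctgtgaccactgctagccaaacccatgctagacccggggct
Slfn2: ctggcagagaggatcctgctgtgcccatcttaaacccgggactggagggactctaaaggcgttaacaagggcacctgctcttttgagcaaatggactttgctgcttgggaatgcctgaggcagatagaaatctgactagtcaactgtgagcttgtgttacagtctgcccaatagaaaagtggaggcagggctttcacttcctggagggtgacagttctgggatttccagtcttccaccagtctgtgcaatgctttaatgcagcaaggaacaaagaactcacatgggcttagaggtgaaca
The Slfn8 and Slfn9 windows are 83.4% identical over 295 aligned bases, and both hold the ISRE match TTTCGTTTTC. Slfn9 also holds an NF-kB match, GGGAACCCCC. The Slfn5 window has the ISRE match GAAAAAGAAA on the opposite strand, and the Slfn2 window has no match to either motif. RefSeq gives 8 promoter windows for the 7 members, of which 4 hold the ISRE: those of Slfn5 and Slfn9 and both overlapping windows of Slfn8. Of all 32851 windows of this length, 3.44% hold it. The NF-kB consensus is in 2 of the 8 (Slfn9 and Slfn1), against 8.46% of all windows, and the AP-1 motif TGANTCA in 1 (Slfn4), against 7.81%. The interferon gamma activated site TTCNNNGAA is in 0 of the 8, against 8.3% of all windows. A match describes letters only, and the motifs were searched on both strands with none of the marked matches overlapping.

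Slfn8, a long member whose gene also acts on mouse T cell development when overexpressed, lies at 83002158 to 83020810 on the minus strand. It had 35.4, 41.9 and 64.3 CPM in KO replicates 4, 5 and 6, against 29.9, 31.3 and 26.5 CPM in WT replicates 1, 2 and 3. All KO libraries were above all WT libraries, and KO replicate 6 stood well above the other 5. Its mean was 47.2 ± 15.2 CPM in KO libraries and 29.2 ± 2.5 CPM in WT libraries (SD, n = 3 each). The log2 fold was 0.69 (SE 0.21), with an unadjusted p of 0.013 and an edgeR adjusted p of 0.61. DESeq2 gave an unadjusted p of 6.2e-04 and an adjusted p of 0.078. The fold had an interval of 1.14 to 2.28, and without KO replicate 6 the log2 fold was 0.40. Among libraries with high Xist counts the log2 ratio of KO replicate 6 to the WT mean was 1.19, and among those with Y-linked counts the KO mean over WT replicate 2 was 0.30.

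Slfn5, whose human counterpart acts in the nucleus and represses interferon-induced transcription, lies at 82951349 to 82964840 on the plus strand. It was measured at 19.2, 13.6 and 28.4 CPM in KO replicates 4, 5 and 6, against 11.6, 16.2 and 9.30 CPM in WT replicates 1, 2 and 3. The groups overlapped, since KO replicate 5 was below WT replicate 2. The mean was 20.4 ± 7.49 CPM in KO libraries and 12.3 ± 3.50 CPM in WT libraries (SD, n = 3 each). The log2 fold was 0.72 (SE 0.30, interval of the fold 1.01 to 2.69), with an unadjusted p of 0.046 and an edgeR adjusted p of 0.68. DESeq2 gave an adjusted p of 0.32. Without KO replicate 6 the log2 fold was 0.41, without WT replicate 3 it was 0.55, and without WT replicate 2 it was 0.97. Among libraries with high Xist counts the log2 ratio of KO replicate 6, the only KO library there, to the WT mean was 1.45. Among those with Y-linked counts the KO mean over WT replicate 2 gave 0.017. Slfn5os, the antisense neighbour, had at most 3 counts in any library, and 7.38% of 50-base windows in Slfn5 transcripts occur in its transcripts.

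Slfn9, the near copy of Slfn8 (82978390 to 82991830, minus strand), did not follow it. It had 101.9, 55.9 and 75.7 CPM in KO replicates 4, 5 and 6, against 84.9, 87.1 and 72.8 CPM in WT replicates 1, 2 and 3. As with Slfn2, the KO values enclosed the WT values, with KO replicate 4 highest and KO replicate 5 lowest. The log2 fold was -0.067 (SE 0.20, edgeR adjusted p = 0.94, interval of the fold 0.686 to 1.33), and 0.12 without KO replicate 5. For Slfn9 the log2 ratio was -0.059 among libraries with high Xist counts and -0.14 among those with Y-linked counts. The count ratio of Slfn8 to Slfn9 was 0.347, 0.750 and 0.850 in KO replicates 4, 5 and 6, against 0.353, 0.359 and 0.364 in WT replicates 1, 2 and 3. KO replicates 5 and 6 were far above the WT ratios, whereas KO replicate 4 was just below them; this ratio too was picked after its values were seen and was not tested. The pseudogene Slfn10-ps (83028130 to 83040042, minus strand) had 40.8, 25.3 and 28.4 CPM in KO replicates 4, 5 and 6, against 34.9, 36.8 and 31.4 CPM in WT replicates 1, 2 and 3, so the KO values enclosed the WT values here as well. Reads could be divided uncertainly among these copies: 14.6% of 50-base windows in Slfn8 and 11.9% in Slfn9 occur in transcripts of other genes, most often of Slfn10-ps. With 100-base windows these shares are 3.38% and 3.71%.

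**Figure D2:**
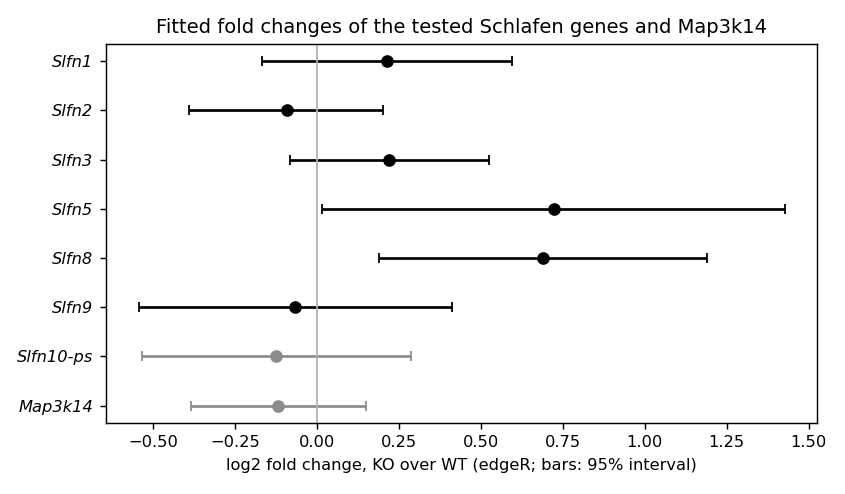
Fitted log2 fold changes, KO over WT, of the 6 tested members (black) and of Slfn10-ps and Map3k14 (grey), with 95% intervals from edgeR. The unadjusted intervals of Slfn5 and Slfn8 lie above 0, the others include 0, and no adjusted p is under 0.05.

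Over the 6 libraries the members followed different courses. Each gene's log2(CPM + 0.5) was centred on its own mean, and genes were compared by the root-mean-square difference over the 6 libraries among 9649 genes that averaged 5 CPM or more. Slfn9 was nearest to Rgs1 (0.0574), a regulator of G protein signalling, then to Slfn10-ps (0.0856) and to the kinase gene Prkcz (0.105), and Slfn2 was 6th nearest (0.113). Slfn2 was nearest to the RNA-editing gene Adarb1 (0.0369), E130012A19Rik (0.0476) and Tesc (0.0489). Slfn8 was nearest to Ifi209 (0.0978), Ifi214 (0.111) and Ifi203 (0.125), all of the PYHIN gene family. Slfn5 was nearest to Cd86 (0.156), the costimulatory ligand of antigen-presenting cells, Trim30d (0.185) and the RNA sensor gene Tlr7 (0.192), and Slfn8 was its 20th nearest gene (0.265). Slfn3 was nearest to the mitotic checkpoint gene Zwilch (0.0214), Whsc1 (0.0224) and the DNA polymerase theta gene Polq (0.0234), and Slfn1 to Gm26532 (0.0488), E130307A14Rik (0.0538) and 9330175E14Rik (0.0538). Slfn8 and its near copy Slfn9 were 0.547 apart.

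**Figure D3:**
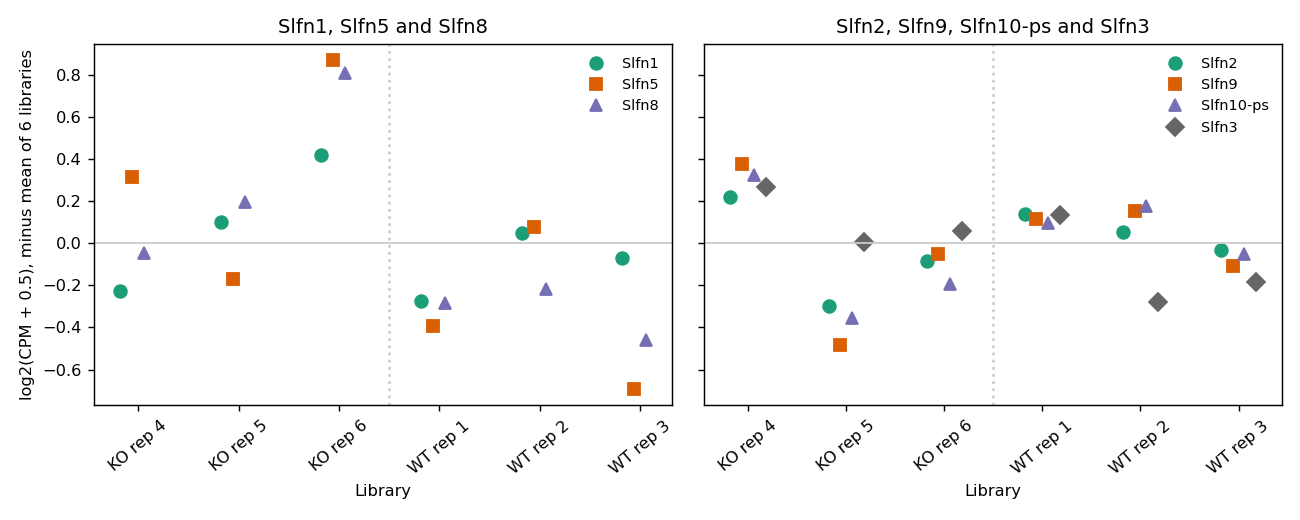
Log2(CPM + 0.5) of each gene minus its mean over the 6 libraries, with KO replicates left of the dotted line and WT replicates right of it. Slfn1, Slfn5 and Slfn8 (left panel) are highest in KO replicate 6, while Slfn2, Slfn9, Slfn10-ps and Slfn3 (right panel) are highest in KO replicate 4.

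Interferon-stimulated genes gave the context for the interferon-linked members. Of 44 tested, 0 were called by edgeR, and DESeq2 called 10, all higher, against 0.65% of all tested genes in either direction. At unadjusted edgeR p under 0.05, 17 had higher and 0 lower values, against 3.82% and 3.44% of all tested genes. Without WT replicate 1 edgeR called 1 of the 44, Ifit2, where 119 genes were called across the table. The median log2 fold was 0.49, and 42 of 44 estimates were positive, against 52.4% of all tested genes. Oas1a, which makes an activator of RNA degradation, averaged 4.61 ± 1.90 CPM in KO libraries and 1.23 ± 0.417 CPM in WT libraries (SD, n = 3 each; edgeR adjusted p = 0.53). The GTPase gene Iigp1 (log2 fold 0.50) and the translation inhibitor gene Ifit2 (log2 fold 0.61) also had an edgeR adjusted p of 0.53 each. The list's mean centred log2 value was 0.13, -0.093 and 0.72 in KO replicates 4, 5 and 6, against -0.42, -0.061 and -0.28 in WT replicates 1, 2 and 3. KO replicate 6, the library with the most Slfn8, Slfn5 and Slfn1, was therefore also the highest in this list. By this mean value, Slfn5 followed the list in falling order through KO replicates 6 and 4, WT replicate 2 and KO replicate 5. Only WT replicates 1 and 3 changed places. Slfn8 in KO replicate 5 was above KO replicate 4 and WT replicate 2, whereas by the mean value that library was below both. The summed CPM of the list gave another order. It was 3315, 3608 and 4244 CPM in KO replicates 4, 5 and 6, against 3044, 3282 and 2986 CPM in WT replicates 1, 2 and 3. By this sum the 6 libraries were in the same order as for Slfn8. These orders were not tested. For receptors and transducers of interferon, 0 of 14 tested genes were called by edgeR or DESeq2, and at unadjusted p under 0.05 there were 0 higher and 1 lower. That gene was Ifng, interferon gamma itself, at 52.2 ± 24.3 CPM in KO libraries and 110.7 ± 42.0 CPM in WT libraries (SD, n = 3 each; edgeR adjusted p = 0.69). Irf2 (log2 fold 0.20) and Jak1 (log2 fold 0.11) had the next smallest p, and Ifnb1 had 0 counts in every library.

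Slfn5 and Slfn8 are also transcribed in myeloid cells, so the markers of such cells are given beside them. The macrophage and monocyte list, with 18 genes in the table and 16 tested, summed to 83.3, 32.5 and 99.3 CPM in KO replicates 4, 5 and 6, against 40.5, 63.3 and 33.0 CPM in WT replicates 1, 2 and 3. Of the 16, 14 had positive estimates (median log2 fold 1.21), against 52.4% of all tested genes, and 0 were called by edgeR or DESeq2. At unadjusted edgeR p under 0.05, Lyz2 was higher and Ccr2 lower, against 3.82% and 3.44% of all tested genes. Lyz2 stood at 1.00 to 4.72 CPM in KO libraries and 0.324 to 1.16 CPM in WT libraries, and Fcgr1 was at 0 in KO replicate 5 and WT replicates 1 and 3. The 3 libraries with the highest sum of this list, KO replicates 6 and 4 and WT replicate 2, were in the same order the 3 highest for Slfn5. KO replicate 5 departed from the match, with the lowest sum but more Slfn5 than WT replicates 1 and 3. By its mean centred log2 value, the interferon-stimulated list had the same 3 libraries highest, also in this order. By summed CPM its 3 highest were instead KO replicates 6, 5 and 4 (4244, 3608 and 3315 CPM). Slfn8 did not share the order of the macrophage and monocyte sums. KO replicate 5 had the lowest of these sums but the second highest Slfn8 level. For Slfn8, WT replicate 2 was below every KO library. The dendritic cell list summed to 80.9 to 160.3 CPM in KO libraries and 88.3 to 161.6 CPM in WT libraries. The neutrophil list summed to 0.920 to 1.03 CPM in KO libraries and 0.356 to 0.722 CPM in WT libraries, and the erythroid list to under 0.5 CPM in every library. B cell markers summed to 345.5 to 375.5 CPM in KO libraries and 349.4 to 425.0 CPM in WT libraries. NK cell markers summed to 1.43 to 2.60 CPM in KO libraries and 1.49 to 3.41 CPM in WT libraries, and CD4 T cell markers to 11.3 to 17.0 CPM in KO libraries and 13.5 to 27.9 CPM in WT libraries. The part of other cells in the Slfn5 and Slfn8 values was not tested.

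Quiescence and proliferation genes were set beside the members linked to growth control. Of 24 quiescence genes, edgeR and DESeq2 called 0, and the median log2 fold was 0.037. Over all tested genes, 3.82% were higher and 3.44% lower at an unadjusted edgeR p under 0.05. At this p, 1 quiescence gene was higher and 1 lower. These were Tcf7, a transcription factor that keeps T cells naive or memory-like, at 586.9 ± 53.4 CPM in KO libraries and 465.9 ± 52.7 CPM in WT libraries, and Klf4, a growth-restraining factor, at 8.28 ± 1.04 CPM in KO libraries and 11.04 ± 1.93 CPM in WT libraries (SD, n = 3 each; edgeR adjusted p = 0.60 and 0.65). Ets1 had the third smallest p (log2 fold 0.16). The list's mean centred log2 value was -0.20, 0.15 and 0.12 in KO replicates 4, 5 and 6, against -0.17, 0.049 and 0.062 in WT replicates 1, 2 and 3. KO replicates 5 and 6 were highest and KO replicate 4 and WT replicate 1 lowest, as for Slfn1. All 12 proliferation genes had positive estimates (median log2 fold 0.20), against 52.4% of all tested genes. Yet edgeR and DESeq2 called 0 of the 12, and none had an unadjusted edgeR p under 0.05. Without WT replicate 1, edgeR called 1, Mki67, where 119 genes were called across the table. This list summed to 3204, 2629 and 2840 CPM in KO replicates 4, 5 and 6, against 3141, 2276 and 2338 CPM in WT replicates 1, 2 and 3, and the order of the 6 libraries was the same as for Slfn3. Kif11 (log2 fold 0.32), Ccne2 (0.28) and Mki67 (0.28) had the smallest p. In a list of ribonuclease, ribonuclease inhibitor and transfer RNA modification genes, edgeR and DESeq2 called 0 of 6 tested. At an unadjusted edgeR p under 0.05, 1 was lower, against 3.44% of all tested genes: Trmt61a, a transfer RNA methyltransferase subunit. Trmt61a was at 50.4 ± 2.99 CPM in KO libraries and 56.8 ± 0.593 CPM in WT libraries (SD, n = 3 each, edgeR adjusted p = 0.62). Rnh1, the inhibitor of angiogenin, had a log2 fold of -0.13, and the ribonuclease H2 subunit gene Rnaseh2a one of -0.058.

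**Figure D4:**
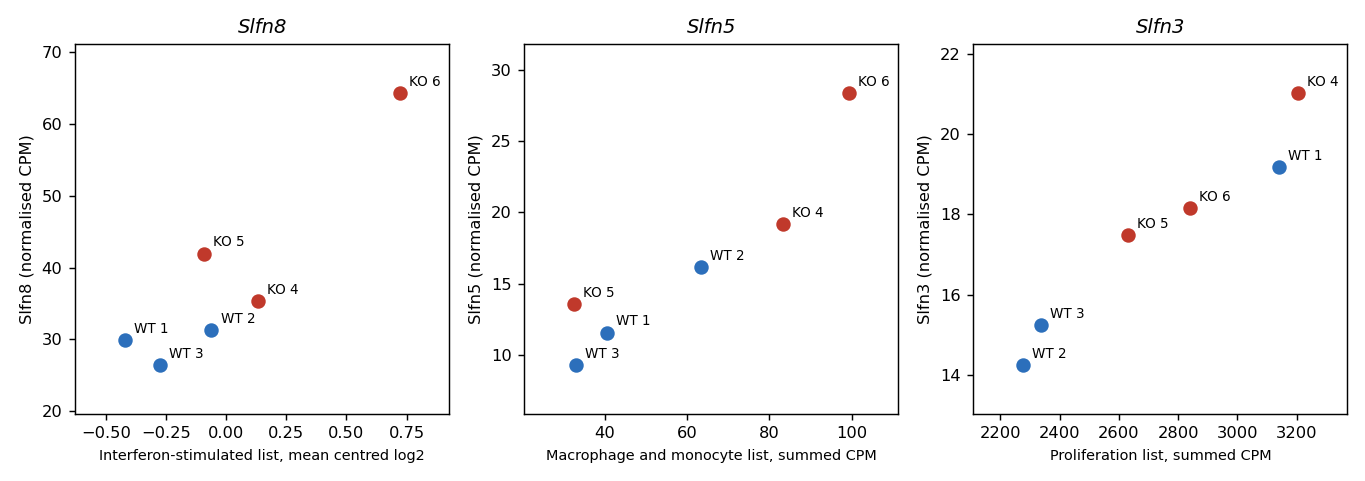
Normalised CPM of Slfn8, Slfn5 and Slfn3 (vertical axes) in each library against the mean centred log2 value of 44 interferon-stimulated genes, the summed CPM of 18 macrophage and monocyte markers and the summed CPM of 12 proliferation genes (horizontal axes); red points are KO and blue points WT libraries, and axes do not start at 0. KO replicate 6 is highest in the first 2 panels, and Slfn3 rises with the proliferation sum through all 6 libraries.

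Genes around the cluster had estimates nearer to 0 than Slfn5 and Slfn8, with 1 exception. Within 150 kb of the outermost Schlafen genes, GENCODE M21 places 30 other genes, of which 21 have a row and 11 were tested. EdgeR called 0 of the 11, and their median log2 fold was -0.058. At an unadjusted edgeR p under 0.05 there was 1, against 7.26% of all tested genes. That gene is Gm11425, a processed pseudogene at 83027500 to 83027997 on the minus strand, between Slfn8 and Slfn10-ps. It had 0.481, 1.73 and 1.30 CPM in KO replicates 4, 5 and 6, against 0.312, 0.350 and 0.259 CPM in WT replicates 1, 2 and 3. Its KO values were all above its WT values, with KO replicates 5 and 6 highest, on 195 counts over all libraries. The log2 fold was 1.91 (SE 0.48, edgeR adjusted p = 0.60). The adaptor subunit gene Ap2b1 (log2 fold -0.073, edgeR adjusted p = 0.73) had KO values all below its WT values. The groups overlapped for Lig3 and Rad51d, which act in DNA repair, and for Rffl, Nle1, AI662270 and Gm11427. Slfn14, the remaining long gene of the cluster, had 1 count in each of KO replicate 5 and WT replicate 3 and 0 in the others, and Slfnl1, on chromosome 4, had 1 to 6 counts in KO libraries and 4 to 6 in WT libraries.

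**Figure D5:**
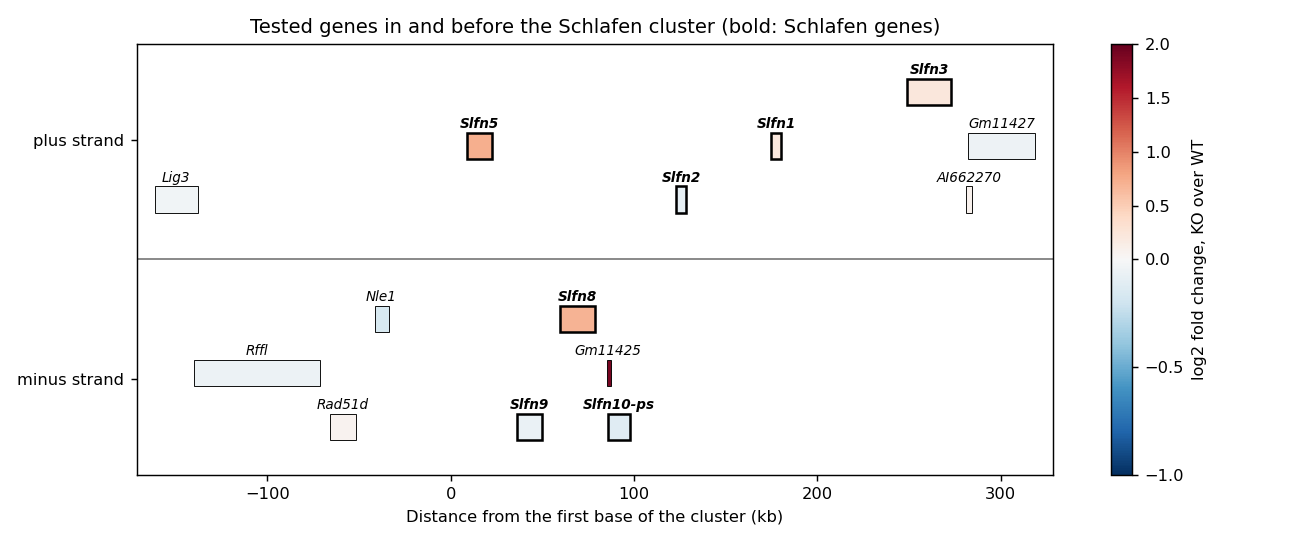
Tested genes in the Schlafen cluster and before its start, drawn to scale by distance from the first base of the cluster in kb, on the plus and minus strands, and coloured by log2 fold change of KO over WT. Slfn5 (0.72), Slfn8 (0.69) and the low-count pseudogene Gm11425 (1.91) have the highest values, and the colour scale is centred on 0 with unequal ends.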

How the data were processed

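Per the labels' protocols, Trizol was used to extract total RNA for Illumina libraries. As deposited by the authors, the file is a matrix of whole-number counts, gene symbols by libraries, with no rows for unassigned reads. The submitters' processing notes list HTSeq 0.9.1, DESeq2 and the mm10 build, without saying what each was used for. Aligner, annotation, read length and strandedness: not given in the sources used here. Thus it is not known here how reads in stretches shared by overlapping genes were assigned. Reads of near-identical copies may have been dropped or divided.

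After filterByExpr and TMM scaling, a robust quasi-likelihood model (glmQLFit, glmQLFTest; edgeR 4.0.16, R 4.3.3) was fitted, with p-values Benjamini-Hochberg adjusted over all 15186 tested genes and 0.05 as the threshold. Log2 folds are KO over WT; the SE is the log2 fold divided by the square root of F. Samples were grouped by title. No 2 libraries agreed within sampling noise: chi-square averaged 21.2 to 58.0 per gene for genes of 200 or more counts. Closeness did not follow genotype. KO replicate 4 with WT replicate 1 had the lowest value, 21.2, as had WT replicates 2 and 3. WT replicates 1 and 2 had the highest, 58.0. The alternatives changed the scaling (RLE, upper quartile), the filter (none, or 1 CPM in 3 libraries), the tool (DESeq2 1.42.0, limma-voom with limma 3.58.1) or the robust step, added a term for sex, or left out each library in turn. The procedure was tested on simulated counts.

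Positions, exon lengths and transcript sequences come from GENCODE M21 on GRCm38, the mm10 assembly, matched by symbol, and promoters from RefSeq; coding sequences were aligned with MAFFT 7.526. The members and gene lists were chosen with earlier results of these data known. The members, the other Schlafen rows and Map3k14 were named whatever their values, with the 3 smallest p per list where none was called, genes within 150 kb of the cluster (some are not reported here) and the 3 genes nearest to each member of at least 5 CPM.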

Additional observations from a re-analysis of the deposited data

Results flagged for a closer look

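The few Slfn4 counts were ordered in opposite ways within the 2 sexes, and no other Schlafen member had every KO library on opposite sides of WT in them. Among libraries with high Xist counts, KO replicate 6 was above both WT libraries, with a log2 ratio of mean CPM of 1.49. Among libraries with Y-linked counts, both KO libraries were below WT replicate 2, with a log2 ratio of -0.22. The difference between the sexes was not tested, and with 4 to 14 counts per library neither ratio shows a difference.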

How the results depend on the processing

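No Schlafen member was called under any of the 14 alternatives run. Their median log2 fold stayed positive, from 0.14 without KO replicate 6 to 0.36 without KO replicate 4. Of 84 member values, 82 kept their direction, and 2 turned positive without KO replicate 5, as did Slfn10-ps. With 1 library left out, the log2 fold ran from -0.24 to 0.022 for Slfn2, from -0.31 to 0.12 for Slfn9 and from -0.36 to 0.011 for Slfn10-ps. The estimate for Slfn8 ran from 0.40 to 0.86 and that for Slfn5 from 0.41 to 0.97 over all alternatives. Over the table, edgeR called 10 genes without a low-count filter and DESeq2 called 91 (63 higher and 28 lower), against 1, and leaving out 1 library gave from 1 to 119, the highest without WT replicate 1; the cause was not tested. The order of mean levels per kb did not change with coding length, but Slfn8 and Slfn9 changed places within KO replicates 5 and 6. At 4 to 14 counts per library, the depth cannot show a difference in Slfn4. No paired analysis was possible because the replicate numbers of the groups, 4 to 6 and 1 to 3, are not shared.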
